A study of Mus musculus with 6 samples.

Results

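The mitochondrial ribosomal protein genes were taken as every gene of the deposited table whose symbol is Mrpl or Mrps followed by a number and at most 1 letter, which gave 76 genes of 23420. All 76 passed the filter on low counts, as did 10607 genes in all. By the position of their proteins in the mammalian mitochondrial ribosome, 49 belong to the large subunit, 26 to the small subunit and 1, *Mrps36*, to neither. The symbols of *Mrps30* and *Mrps18a* read as small subunit, but structures place both proteins in the large subunit, where they were counted.

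RNAseq was performed on polyA RNA of CD4+CD62L+ spleen cells from BALB/c mice aged 12 weeks, in 3 groups of 2 libraries. The cells of every group were purified with magnetic beads and activated on plates with antibodies against CD3 and CD28, received lentivirus after 24 h at 10 µl per well, were fed medium with IL-2 another 24 h later and were harvested after a further 48 h. The volume and the IL-2 are as the labels state them, whereas the study's methods give a larger volume and describe cultures of this kind without IL-2. The control group carried a control (scramble) shRNA, the harmine group carried the same control shRNA and was fed with 3.7 µM harmine, and the sh*Dyrk1a* group carried shRNA against *Dyrk1a* without harmine. Harmine is a plant alkaloid that inhibits the kinase DYRK1A and some related enzymes. The comparisons ask how far the drug and the knockdown of its target resemble each other in these cells. Several hairpins were listed for each target, and the labels do not say which hairpin a library carries. They also do not say whether replicates came from separate animals or cultures, so p-values here measure the spread between these libraries, which may be technical.

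Mitochondria build part of their own respiratory chain. The few protein genes of mitochondrial DNA are translated inside the organelle by a ribosome whose RNA is encoded there and whose proteins are all encoded in the nucleus, made in the cytosol and imported. Some of these proteins descend from the ribosome of the bacterial ancestor, and others were added in the mitochondrial lineage. Activation of T cells is known to start a phase of growth in which mitochondria are enlarged and their translation machinery is built up.

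The starts of 7 of these genes are printed to show the promoter letters that many of them share. Each stretch runs from 150 bases before the annotated start to 30 bases from it, 5′ to 3′ on the strand of the gene, in the RefSeq annotation of GRCm38.p6. Capitals mark GCGCN followed by TGCGC (NRF1), CCGGAAG (the core of GABPA and other ETS factors) or AANATGGCG (YY1), on either strand. NRF1 and GABPA are known regulators of nuclear genes for mitochondrial proteins. *Mrpl45* had the highest level by counts and *Mrpl30* the highest level per kilobase, *Mrpl27*, *Mrps21* and *Mrpl32* are among the genes with values below, and *Mrps11* and *Mrpl46* share a start region in opposite directions.
Mrpl45 (chr11:97315566-97315745, plus strand): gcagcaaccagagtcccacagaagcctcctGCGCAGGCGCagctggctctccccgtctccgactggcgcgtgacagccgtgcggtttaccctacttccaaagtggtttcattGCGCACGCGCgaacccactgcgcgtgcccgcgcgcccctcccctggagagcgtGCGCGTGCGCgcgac
Mrpl30 (chr1:37890327-37890506, plus strand): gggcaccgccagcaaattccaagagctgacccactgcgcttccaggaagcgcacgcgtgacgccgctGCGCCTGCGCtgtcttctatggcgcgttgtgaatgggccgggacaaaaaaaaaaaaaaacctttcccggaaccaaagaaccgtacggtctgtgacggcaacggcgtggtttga
Mrpl27 (chr11:94653641-94653820, plus strand): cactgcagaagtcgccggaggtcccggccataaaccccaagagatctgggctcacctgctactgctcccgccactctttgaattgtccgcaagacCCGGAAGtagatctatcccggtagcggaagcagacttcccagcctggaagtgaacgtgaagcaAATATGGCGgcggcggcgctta
Mrps21 (chr3:95871485-95871664, minus strand): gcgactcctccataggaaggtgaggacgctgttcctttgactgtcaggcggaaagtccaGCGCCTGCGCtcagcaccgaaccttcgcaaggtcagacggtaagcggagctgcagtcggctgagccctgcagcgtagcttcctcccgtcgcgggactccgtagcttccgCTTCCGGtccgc
Mrpl32 (chr13:14613008-14613187, minus strand): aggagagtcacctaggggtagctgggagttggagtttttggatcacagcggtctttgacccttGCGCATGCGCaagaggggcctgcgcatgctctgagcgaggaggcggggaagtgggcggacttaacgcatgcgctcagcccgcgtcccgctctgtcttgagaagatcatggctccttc
Mrps11 (chr7:78782981-78783160, plus strand): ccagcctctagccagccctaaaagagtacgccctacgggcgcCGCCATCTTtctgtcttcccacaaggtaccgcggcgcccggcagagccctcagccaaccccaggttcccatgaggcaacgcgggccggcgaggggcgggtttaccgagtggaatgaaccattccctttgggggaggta
Mrpl46 (chr7:78783060-78783239, minus strand): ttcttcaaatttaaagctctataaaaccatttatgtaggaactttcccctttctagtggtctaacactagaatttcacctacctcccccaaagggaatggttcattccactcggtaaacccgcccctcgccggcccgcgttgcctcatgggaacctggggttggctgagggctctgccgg

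Windows from 250 bases before to 50 bases after the start were given for 67 of the 76 genes, 73 windows in all. At least 1 of the 3 motifs was present in 40 of the 73 windows (54.8%), against 14.2% of all 32851 windows. The GABPA core was present in 32.9% of the windows against 8.9% of all, the NRF1 motif in 16.4% against 4.6% and the YY1 motif in 13.7% against 2.4%. For the E-box CACGTG the shares were 9.6% and 7.2%, for CCAAT 41.1% and 37.4%, and for TATAAA 6.8% and 13.6%. The GC content of the windows had a median of 58.3%, against 52.7% for all. The part of GC content in these shares was not tested, and a match is a match of letters, not a measured binding site.

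The genes lie on 17 chromosomes, most often on chromosomes 11 (10 genes), 17 (8 genes) and 6 (7 genes). For 32 of them (42.1%) the start lies head to head within 1000 bases of the start of a protein-coding gene on the other strand, as it does for 10.8% of the 22028 protein-coding genes. Their transcripts are short, with a median length of 1221 bases (440.5 for *Mrpl52* to 6073 for *Mrps25*) against 2426 bases for protein-coding genes, while the GC content of the transcripts is similar (50.5% and 49.7%). The exons of 32 members overlap another gene, and without strand in these libraries reads of overlapping genes cannot be told apart.

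The 6 libraries differed in depth, and so did the precision of the members' counts. Total counts were 1743428 and 1096345 in the control libraries, 3441063 and 3747648 with harmine, and 2678872 and 3274050 with sh*Dyrk1a*. The median member had 35.5 counts in control replicate 2 and 119.5 in harmine replicate 2, and the lowest count of any member in any library was 7. *Dyrk1a* itself had 58.4 and 82.7 CPM (counts scaled to a common library size) in control, 74.8 and 77.6 with harmine and 60.2 and 61.9 with sh*Dyrk1a*. The sh*Dyrk1a* libraries thus lay between the controls, at a log2 fold change of −0.19 (standard error 0.21, edgeR quasi-likelihood, adjusted p = 0.835), or 0.07 without control replicate 2 and −0.45 without control replicate 1. A lower level of *Dyrk1a* RNA was not detectable beyond the spread between the controls. CD4 T cell markers summed to 2620 to 2920 CPM, and none of the 8 in the table was at 0 in any library. Markers of B cells summed to 22.4 to 36.3 CPM (*Pax5* and *Cr2* were at 0 in at least 1 library), myeloid markers to 18.6 to 43.9 (*Csf1r* and *Itgax*), CD8 T and NK cell markers to 54.0 to 115 (*Gzmk* at 0 in all libraries, *Klrb1c* and *Ncr1* in some), and erythroid and platelet markers to 18.0 to 32.6 (*Hba-a2* at 0 in all). The highest sums of the last 3 lists were all in control replicate 1.

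As a group, the mitochondrial ribosomal protein genes took a larger share of control replicate 1 than of any other library. They took 0.377% of its counts, and 0.282% in control replicate 2, 0.297% and 0.291% with harmine, and 0.274% and 0.284% with sh*Dyrk1a*. After TMM scaling, which sets 1 scale per library and leaves differences tied to transcript length in place, the members summed to 4126 and 2613 CPM in control, 3046 and 2880 CPM with harmine and 2807 and 2738 CPM with sh*Dyrk1a*. The 4 treated libraries lay between the 2 controls, and the spread was 3370 ± 1070 CPM (SD, n = 2) in the controls, 2960 ± 117 CPM with harmine and 2770 ± 48.8 CPM with sh*Dyrk1a*. In bulk RNA, fewer cells that express these genes and less RNA per cell cannot be told apart.

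**Figure D1:**
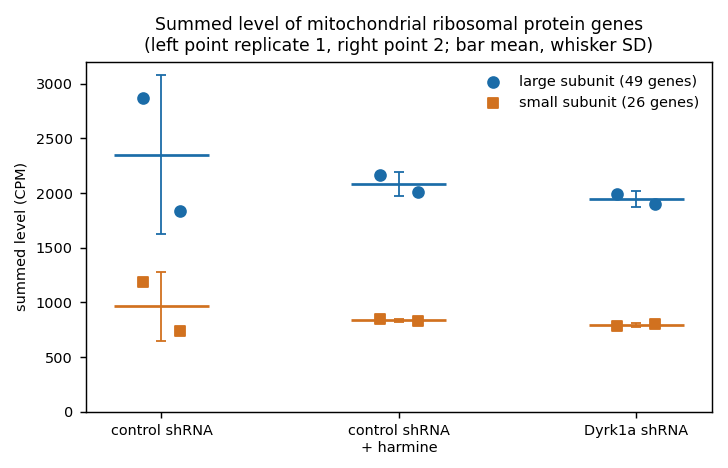
Summed level in CPM (vertical axis, from 0) of the 49 large subunit and 26 small subunit genes in each library of the 3 groups. Points are libraries, bars are group means and whiskers are SD over 2 libraries; the treated libraries lie between the 2 controls for each subunit.

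The subunits kept a similar proportion to each other in each library. Large subunit genes summed to 2867 and 1839 CPM in control, 2164 and 2006 CPM with harmine and 1995 and 1897 CPM with sh*Dyrk1a*. Small subunit genes summed to 1188 and 740 CPM, 847 and 827 CPM, and 781 and 804 CPM in the same order. The ratio of large to small was 2.41 and 2.48 in the controls, 2.55 and 2.43 with harmine and 2.55 and 2.36 with sh*Dyrk1a*, so the groups overlapped.

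Single genes differed widely in level. By counts, *Mrpl45*, which holds the ribosome at the inner membrane, was highest with a mean of 190 CPM (232 and 172 CPM in control, 185 and 165 CPM with harmine, 212 and 173 CPM with sh*Dyrk1a*). Since longer transcripts give more reads, levels of different genes were compared as CPM per kilobase of transcript. On that scale the highest were *Mrpl30* (mean 158), *Mrpl33* (146), *Mrpl14* (135), *Mrps21* (115) and *Mrpl52* (105). Each of these overlapped its neighbour in the order over the 6 libraries, for example 127 to 238 CPM per kilobase for *Mrpl30* and 97.1 to 281 for *Mrpl33*. The lowest were *Mrpl47* (2.41), *Mrps5* (2.44), *Mrps31* (3.61), *Mrpl19* (5.50) and *Mrpl1* (6.81), and these neighbours overlapped too. The same 5 genes were highest when the longest transcript of each gene was used in place of the median length, with *Mrpl33* then first. The 3 paralogs of bacterial S18, which occupy different places in the ribosome, had means of 48.5 (*Mrps18c*), 27.3 (*Mrps18b*) and 23.5 (*Mrps18a*) CPM per kilobase. The range of *Mrps18c* over the 6 libraries (37.8 to 78.7) lay just above that of *Mrps18a* (16.8 to 37.5), and the range of *Mrps18b* (21.5 to 32.0) overlapped that of *Mrps18a*.

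Among genes with a known place or task, those of the stalk that recruits translation factors had small fold changes against control. *Mrpl12*, which is also known to bind the mitochondrial RNA polymerase, had 74.7 and 48.1 CPM in control, 52.2 and 57.8 CPM with harmine and 55.9 and 59.0 CPM with sh*Dyrk1a*, so the treated libraries lay between the controls. *Mrpl10* had 110 and 93.7 CPM in control, 91.8 and 85.6 CPM with harmine and 91.2 and 89.6 CPM with sh*Dyrk1a*, and *Mrpl11* had 22.0 and 17.7, 16.7 and 14.5, and 16.1 and 13 CPM. Each of the 3 was higher in control replicate 1 than in control replicate 2. Their log2 fold changes were −0.18 (standard error 0.22), −0.21 (0.19) and −0.36 (0.29) for *Mrpl12*, *Mrpl10* and *Mrpl11* with harmine, and −0.11 (0.22), −0.18 (0.19) and −0.47 (0.30) with sh*Dyrk1a*. Whether the 3 genes differed from each other was not tested. Near the peptidyl transferase centre, where peptide bonds form, *Mrpl2* (38.9 and 23.6 CPM in control) and *Mrpl27* (43.3 and 18.6 CPM) differed most between the controls, and *Mrpl3* (38.9 and 44.7 CPM) and *Mrpl16* (13.2 and 9.29 CPM) differed less.

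Around the exit of the peptide tunnel, *Mrpl23* gave the widest gap of any member between the controls, with 33.9 and 5.91 CPM (54 and 7 counts). Its other libraries lay between, at 17.6 and 20.3 CPM with harmine and 16.5 and 17.4 CPM with sh*Dyrk1a*. *Mrpl24*, also at the tunnel exit, was even over all libraries, between 54.0 and 60.5 CPM. *Mrpl22* had 23.9 and 16.9 CPM in control, 12.5 and 16.6 with harmine and 14.6 and 13.9 with sh*Dyrk1a*, and *Mrpl4* had 108 and 57.4, 95.7 and 75.5, and 82.4 and 87.8 CPM. *Mrpl44*, a large subunit protein with a ribonuclease III fold, stayed between 28.3 and 35.5 CPM. In the small subunit, *Mrps12*, which lines the decoding centre, had 22.0 and 11 CPM in control, 9.54 and 13.5 with harmine and 9.20 and 15.3 with sh*Dyrk1a*, and all 3 groups overlapped. *Mrps7*, a protein of the head of the small subunit, ranged from 33.5 to 42.1 CPM and *Mrps5* from 8.94 to 12.6 CPM. *Mrps36*, now assigned to the α-ketoglutarate dehydrogenase complex of the citric acid cycle, had 72.2 and 33.8 CPM in control, 34.9 and 47.0 with harmine and 31.8 and 36.6 with sh*Dyrk1a*.

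Which library was highest differed with transcript length. Control replicate 1 was the highest of the 6 libraries for 54 of the 76 members (71.1%), against 24.3% of the other genes tested and 67.8% of those with transcripts of at most 1221 bases, the median of the members. Control replicate 2 was the lowest for 35 (46.1%), against 23.0% and 43.9%. Among the 38 members of that length control replicate 1 was the highest for 84.2%, and among the 38 longer ones for 57.9%, against 17.5% of other longer genes. Between the controls the median member was higher in replicate 1 by 0.61 on the log2 scale, and 68 of 76 members were higher there. Among the 38 members with transcripts of at most 1221 bases the median difference was 0.82 (37 of 38 higher), and among the 38 longer ones it was 0.34 (31 of 38). Other genes showed a difference by length as well, with a median of 0.68 for the 1247 others of at most 1221 bases and −0.07 for the 8667 longer ones. Over the 76 members the difference between controls went down with transcript length (Spearman's rho −0.59) and up with GC content (0.31), where the points share the same 2 libraries. Between the harmine replicates the median member differed by 0.09 (rho with length 0.18), and between the sh*Dyrk1a* replicates by −0.01 (0.24).

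**Figure D2:**
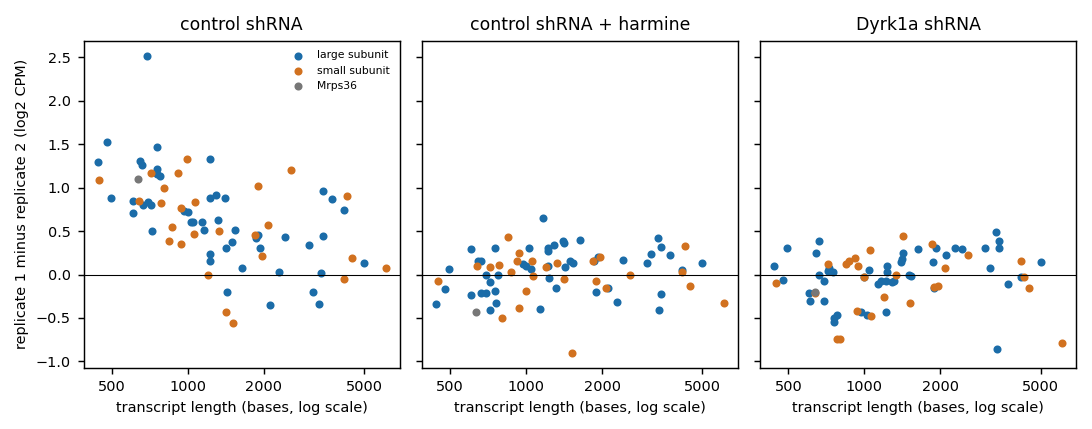
Difference between replicates (log2 CPM, vertical axis) against transcript length in bases (log scale, horizontal axis) for the 76 genes in each of the 3 groups. Each point is a gene; in the controls most points lie above 0, the shorter the transcript the farther (medians 0.82 for shorter and 0.34 for longer transcripts), and in the treated groups they scatter around 0.

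With harmine, most members lay below control, but only 2 of them beyond the spread between libraries before adjustment and none after it. Of 76 members, 17 were above and 59 below 0, with a median log2 fold change of −0.24 (range −0.96 to 0.48) and a median over all genes tested of −0.02. No member passed in edgeR's quasi-likelihood test once p-values were adjusted by Benjamini-Hochberg over all genes (smallest adjusted p = 0.883), where 0.00943% of all genes did, and none passed in DESeq2. At an unadjusted p under 0.05, 0 members were higher, against 2.22% of all genes (11 of 1247 other genes of short transcripts). At that threshold 2 were lower (*Mrpl27* and *Mrps25*), against 3.07% (6.74% of other genes of short transcripts). Both harmine libraries were above both controls for 2 members, against 16.4% of all genes and 85 of 1247 other genes with transcripts of at most 1221 bases. They were below both for 11 members, or close to the 15.9% of all genes and the 15.2% of other genes of that length. The standard error of a member was 0.26 in the median, and the 95% interval of 51 of the 76 lay within a 2-fold change in either direction. The direction of the group rested on control replicate 1, without which 53 members were above and 23 below 0, at a median of 0.21. Without control replicate 2 the median was −0.49. Members past an unadjusted p under 0.05 were mostly higher without control replicate 1 and all lower without control replicate 2. Such fits leave 1 library in a group, so their counts were not taken as results. Within the control group, replicate 1 also had the higher sums of myeloid, CD8 T and NK cell, and erythroid and platelet markers, and their part in the result was not tested.

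The smallest p of the harmine comparison belonged to *Mrps25* (chr6:92169525-92184033, minus strand), a small subunit protein with no bacterial counterpart. It had 60.3 and 57.4 CPM in control, 30.7 and 38.6 CPM with harmine and 33.3 and 57.5 CPM with sh*Dyrk1a*. Both harmine libraries were lower than both controls, and the sh*Dyrk1a* libraries spread over the whole range. The log2 fold change with harmine was −0.76 (standard error 0.25, edgeR unadjusted p = 0.00855, adjusted p = 0.883), and it was −0.73 without control replicate 1, −0.79 without control replicate 2 and −0.71 with trends of length and GC content removed. Exons of *Mrps25* overlap those of *Nr2c2*, a nuclear receptor gene, which had 89.8 and 94.5 CPM in control and 93.0 and 94.8 CPM with harmine. *Mrpl27* (chr11:94653767-94660089, plus strand) had 43.3 and 18.6 CPM in control, 16.7 and 19.0 CPM with harmine and 14.6 and 20.6 CPM with sh*Dyrk1a*, so that control replicate 1 stood apart from the other 5 libraries. Its log2 fold change with harmine was −0.83 (standard error 0.33, edgeR unadjusted p = 0.0244), but −0.06 without control replicate 1 and −1.27 without control replicate 2. Its exons overlap *Eme1*, which had at most 6.28 CPM. *Mrps14* (−0.54, standard error 0.26), *Mrps10* (−0.59, 0.29), *Mrps18c* (−0.53, 0.26) and *Mrps31* (−0.96, 0.50) followed by size of p. Of these, *Mrps14* had 104 and 51.5 CPM in control against 53.1 and 55.7 CPM with harmine, and its fold change turned to 0.07 without control replicate 1. Without the same library *Mrps10* was at −0.09 and *Mrps18c* at −0.02, while *Mrps31* was at −1.25, and with length and GC trends removed *Mrps18c* was at −0.29. *Mrps31* was the least counted, with 10 and 11 counts in the controls and 9 and 19 with harmine, at 6.28 and 9.29 against 2.68 and 5.02 CPM.

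With sh*Dyrk1a*, members lay below control more often, again without a member that passed after adjustment. Of 76 members, 9 were above and 67 below 0, with a median log2 fold change of −0.34 (range −0.85 to 0.24) against −0.01 over all genes. The smallest adjusted p was 0.612 in edgeR's quasi-likelihood test, where 0.0189% of all genes passed, and DESeq2 called no member either. At an unadjusted p under 0.05, 0 members were higher, against 3.10% of all genes, and 14 of 76 were lower, against 4.59% of all genes. Among other genes with transcripts of at most 1221 bases, 4 of 1247 were higher and 12.3% were lower, and the members of that length gave 10 of 38 lower. DESeq2 gave 8 lower at the same threshold, and 5 were lower with trends of length and GC content removed from each library. The shares of all genes in those fits are not given here, so these counts have no background beside them. The groups did not overlap for 2 members above control, against 18.5% of all genes and 54 of 1247 other genes of short transcripts. Below control they did not overlap for 14 members, against 16.9% (22.0% of other genes of short transcripts). The median standard error was 0.27, and the intervals of 43 members lay within a 2-fold change. Without control replicate 1, 44 members were above and 32 below 0, at a median of 0.07. Without control replicate 2 the median was −0.60. The count of 14 fell when control replicate 1 or a sh*Dyrk1a* library was left out, and rose without control replicate 2. This comparison shares its 2 control libraries with that of harmine, so both medians move with the same libraries.

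Among the genes of smallest p with sh*Dyrk1a*, *Mrpl15* (chr1:4773206-4785739, minus strand), a core protein of the large subunit, was the first. It had 55.9 and 40.5 CPM in control, 34.0 and 39.1 CPM with harmine and 27.2 and 30.4 CPM with sh*Dyrk1a*. The sh*Dyrk1a* libraries were the lowest, the harmine libraries came next and the controls were highest, with no overlap between groups. The log2 fold change was −0.75 (standard error 0.23, edgeR unadjusted p = 0.00512, adjusted p = 0.612), and it was −0.66 with length and GC trends removed, −0.50 without control replicate 1 and −0.95 without control replicate 2. *Mrpl40* (−0.81, standard error 0.30), a large subunit protein added in the mitochondrial lineage, had 34.5 and 22.8 CPM in control and 13.8 and 19.2 CPM with sh*Dyrk1a*. *Mrpl32*, a zinc-binding protein that is processed by a protease after import, had 45.8 and 36.3 CPM in control, 34.3 and 31.4 CPM with harmine and 29.5 and 23.9 CPM with sh*Dyrk1a*, at −0.64 (standard error 0.24). In these 2 genes both sh*Dyrk1a* libraries were below both controls, and both were at −0.46 without control replicate 1. *Mrps21* had 87.9 and 41.4 CPM in control and 37.9 and 40.7 CPM with sh*Dyrk1a* (−0.74, standard error 0.27), and *Mrpl30* had 158 and 90.3 CPM against 83.9 and 84.6 CPM (−0.57, standard error 0.23). For both, the lower control lay next to the treated libraries and the gap was that of control replicate 1. Without it the fold changes were −0.08 and −0.11, and with length and GC trends removed −0.25 and −0.17. *Mrps14* (−0.66, standard error 0.26) had 47.5 and 52.2 CPM with sh*Dyrk1a* and overlapped control replicate 2, and it was at −0.05 without control replicate 1.

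The 14 genes lower at an unadjusted p under 0.05 with sh*Dyrk1a* were spread over both subunits. They were *Mrpl15*, *Mrpl20*, *Mrpl27*, *Mrpl30*, *Mrpl32*, *Mrpl33*, *Mrpl40* and *Mrpl42* of the large subunit, *Mrps10*, *Mrps14*, *Mrps18c*, *Mrps21* and *Mrps35* of the small subunit, and *Mrps36*. With length and GC trends removed, *Mrpl15*, *Mrpl32*, *Mrpl40*, *Mrps14* and *Mrps35* were lower at that threshold. *Mrps35* is a long transcript (4162 bases) and was even between controls, at 35.8 and 37.1 CPM, with 30.7 and 30.1 CPM with harmine and 26.4 and 23.6 CPM with sh*Dyrk1a*. Its groups were in the same order as those of *Mrpl15* and did not overlap. In all, 8 members had each of the 4 treated libraries below both controls (10.5%, against 7.8% of the other genes). They were *Mrpl10*, *Mrpl11*, *Mrpl15*, *Mrpl22*, *Mrpl32*, *Mrps22*, *Mrps31* and *Mrps35*. By length, the share was 5.3% of the 38 shorter members, against 10.3% of other genes of short transcripts. It was 15.8% of the 38 longer members, against 7.3% of other longer genes. For 27 members (35.5%, against 15.6% of other genes) the 4 treated libraries lay between the 2 controls. Here the share was 42.1% for the shorter members, against 36.2% of other genes of short transcripts. Among the longer members it was 28.9%, against 12.7% of other longer genes.

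**Figure D3:**
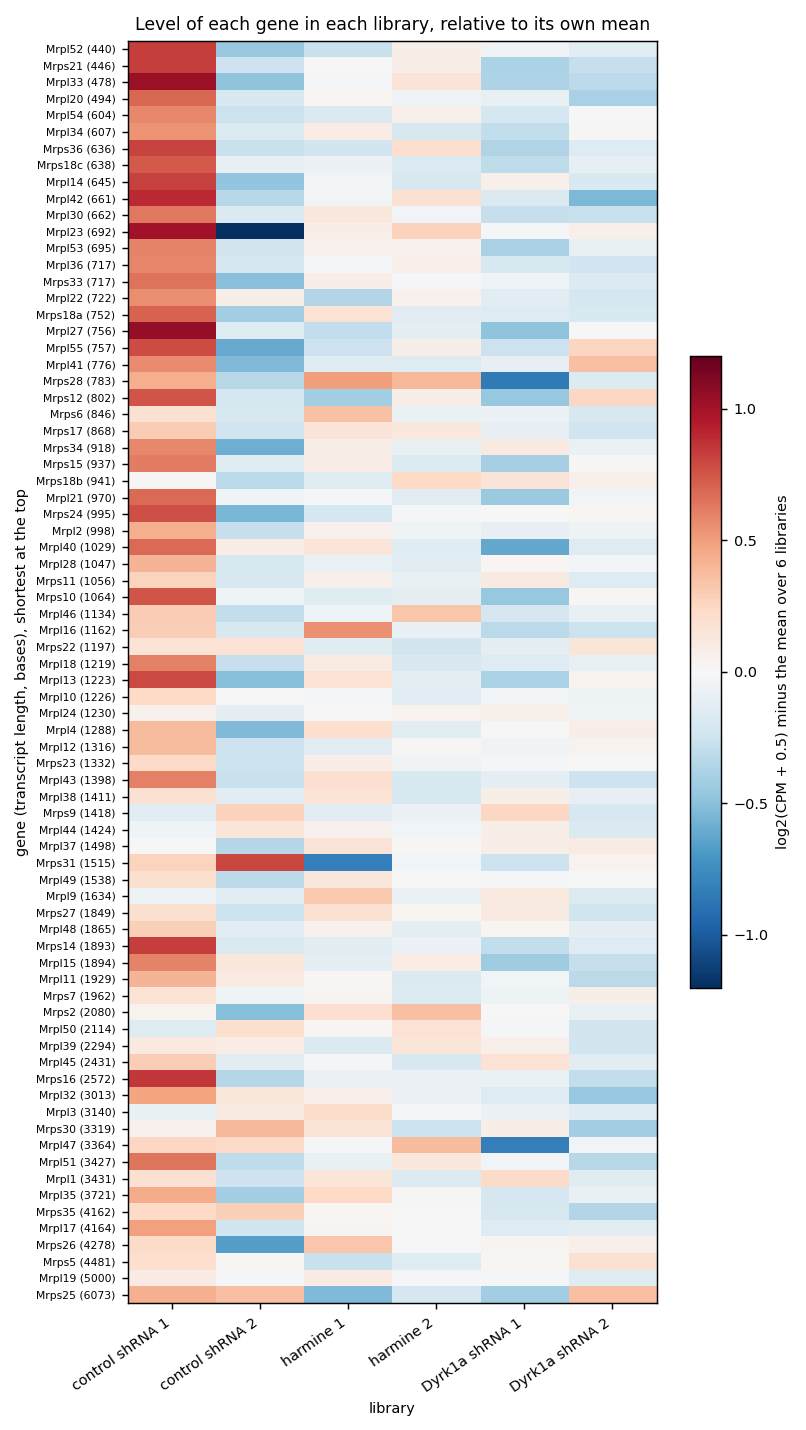
Level of each of the 76 genes in each library, as log2(CPM + 0.5) minus the mean of the gene over 6 libraries (colour scale), with genes ordered by transcript length in bases and the shortest at the top. Control replicate 1 is the highest library for 54 genes, 32 of them among the 38 of shorter transcripts.

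Between sh*Dyrk1a* and harmine, where the controls do not enter the difference, the members lay closer to 0. Of 76, 19 were above and 57 below 0, with a median log2 fold change of −0.11 (range −0.94 to 0.40) against 0.00 over all genes. No member passed edgeR's quasi-likelihood test after adjustment (smallest adjusted p = 0.830), where 0.00943% of all genes did, and DESeq2 called none. At an unadjusted p under 0.05, 0 members were higher, against 2.91% of all genes (14 of 1247 other genes of short transcripts). At that threshold 1 was lower, against 2.82% (4.25% of other genes of short transcripts), and DESeq2 gave 0 there. That count rose when a control library or harmine replicate 2 was left out, and fell when harmine replicate 1 was. The groups did not overlap for 5 members higher with sh*Dyrk1a*, against 20.2% of all genes (125 of 1247 other genes of short transcripts), and for 27 lower, against 20.8%. The members were lower without overlap in 35.5% of cases. For the 38 shorter members the share was 42.1%, against 33.4% of other genes of short transcripts. For the 38 longer members it was 28.9%, against 18.6% of other longer genes. The 38 shorter members had a median of −0.11, as did other genes of short transcripts. The 38 longer members were at −0.11 too, where other longer genes were at 0.02. The 95% intervals of 69 members lay within a 2-fold change.

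The 1 gene was *Mrps28* (chr3:8802146-8923918, minus strand), a small subunit protein. It had 11.9 and 6.75 CPM in control, 12.5 and 11.6 CPM with harmine and 4.60 and 7.66 CPM with sh*Dyrk1a*, which rest on 19, 8, 42, 44, 12 and 26 counts. The harmine libraries were above the sh*Dyrk1a* libraries, and the controls spread over both. The log2 fold change was −0.94 (standard error 0.36, edgeR unadjusted p = 0.0190, adjusted p = 0.830). Next by p were *Mrpl16* (−0.57, standard error 0.33), *Mrps25* (0.40, 0.24), *Mrpl15* (−0.34, 0.22), *Mrpl47* (−0.57, 0.38) and *Mrpl30* (−0.32, 0.22). *Mrpl16* had 15.8 and 10.0 CPM with harmine and 8.43 and 8.84 CPM with sh*Dyrk1a*, and *Mrpl47*, at the tunnel exit, had 7.75 and 10.3 against 4.21 and 7.66 CPM. For *Mrps25* the sign turned to −0.06 without sh*Dyrk1a* replicate 2, and for *Mrpl16* to 0.06 when all libraries were thinned to the depth of the smallest.

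**Figure D4:**
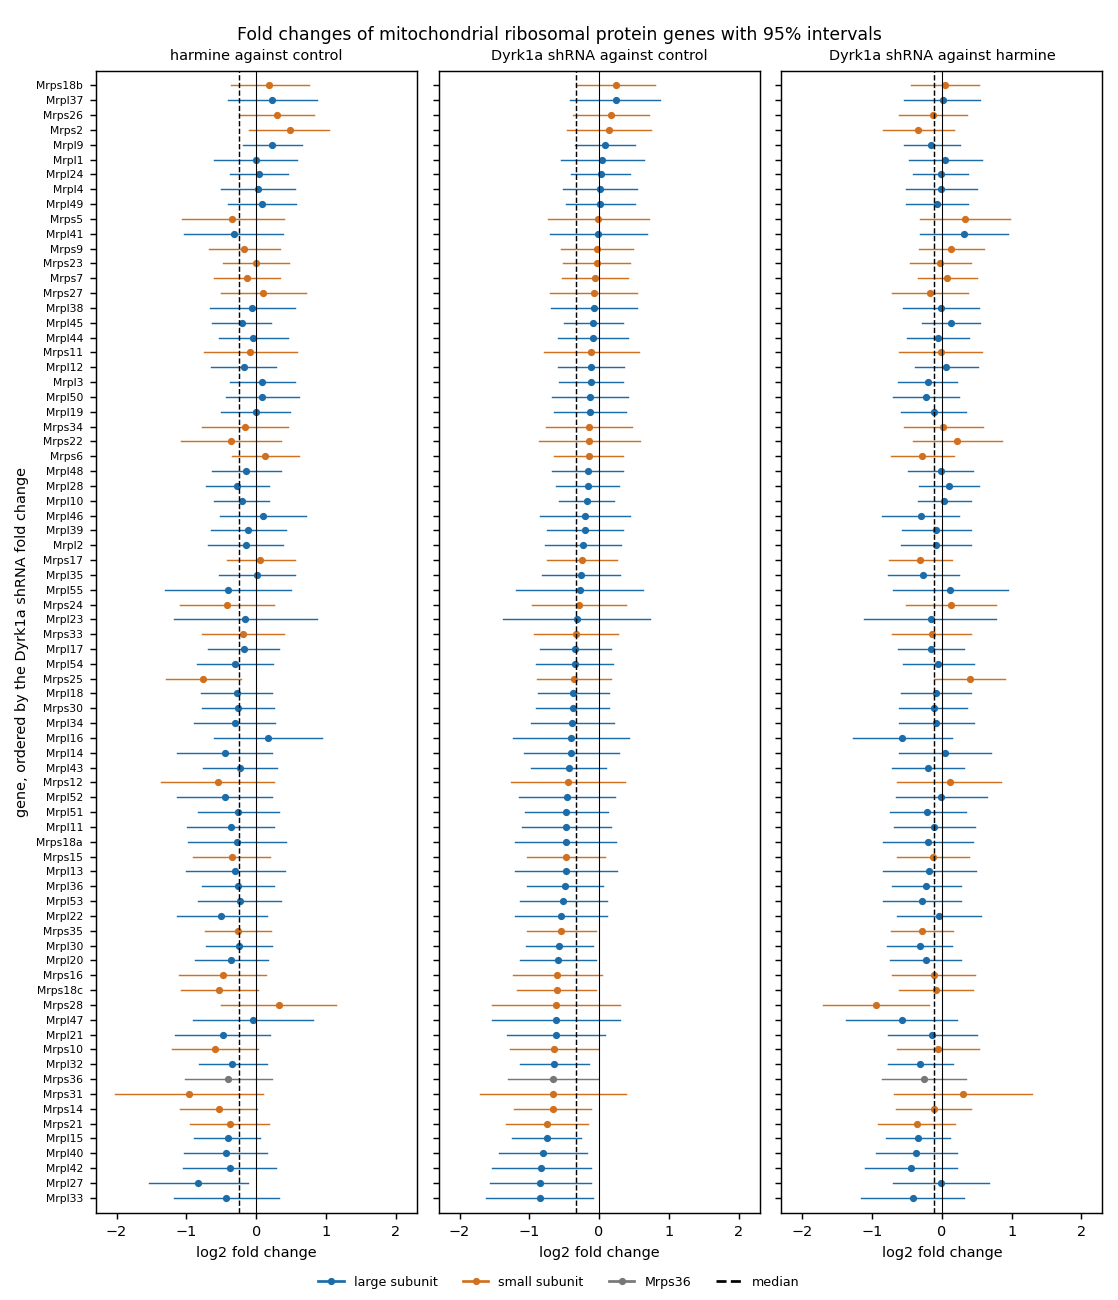
Log2 fold changes (horizontal axis) of the 76 genes (vertical axis, in the order of the sh*Dyrk1a* comparison) with 95% intervals, for harmine against control, sh*Dyrk1a* against control and sh*Dyrk1a* against harmine. Points are genes coloured by subunit, the solid line is 0 and the dashed line is the median of the 76 genes, −0.24, −0.34 and −0.11 from left to right.

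The medians were similar for the subunits and differed by transcript length. Large subunit genes had medians of −0.23 with harmine and −0.35 with sh*Dyrk1a*, and small subunit genes −0.23 and −0.27. Within the large subunit, the 30 proteins with a bacterial counterpart had −0.25 and −0.38 and the 19 without one −0.23 and −0.20. Within the small subunit, 16 with a counterpart had −0.34 and −0.37 and 10 without one −0.18 and −0.14. *Mrps18a* and *Mrps18b*, though paralogs of bacterial S18, were counted among those without a counterpart. The 38 members of shorter transcripts had medians of −0.32 with harmine and −0.42 with sh*Dyrk1a*, and the 38 longer ones −0.14 and −0.13. Other genes of short transcripts had −0.18 and −0.29 (28.2% and 18.0% above 0), and other longer genes 0.01 and 0.03. With trends of length and GC content removed from each library the medians of all members were −0.11 and −0.15, those of shorter members −0.08 and −0.15 and those of longer members −0.14 and −0.14.

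**Figure D5:**
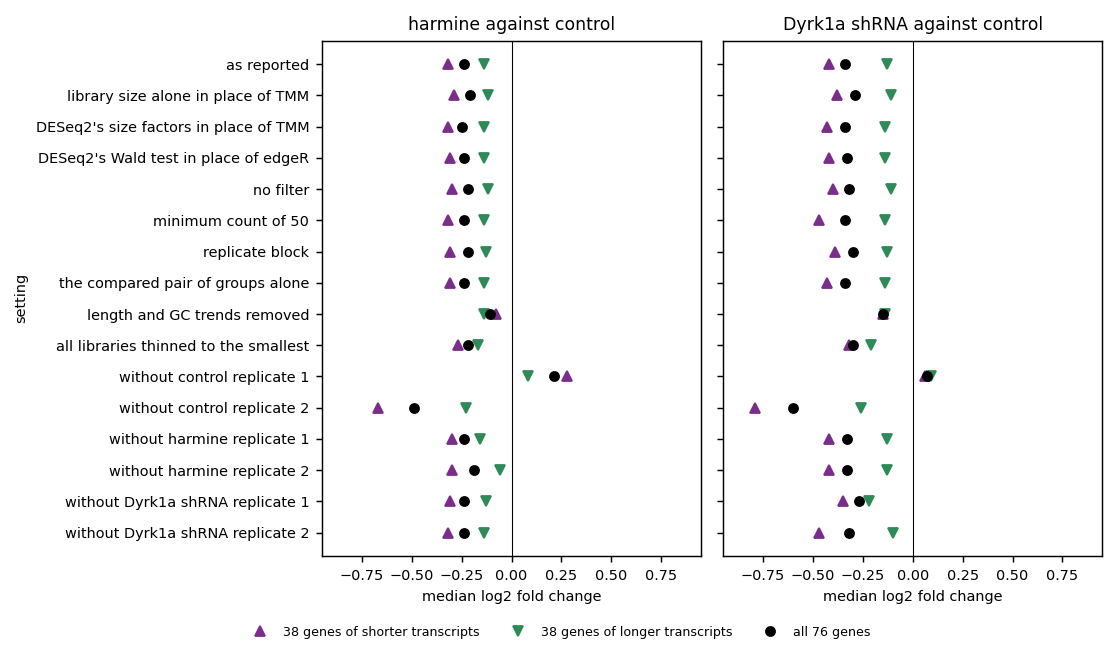
Median log2 fold change (horizontal axis) of all 76 genes, the 38 of shorter and the 38 of longer transcripts, under each setting of the analysis (vertical axis), for harmine (left) and sh*Dyrk1a* (right) against control. All medians lie below 0 in each setting except without control replicate 1, where those of all 76 genes are 0.21 and 0.07.

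Members with and without the promoter motifs printed above had similar medians. The 40 members with a GABPA, NRF1 or YY1 match had medians of −0.25 with harmine, −0.38 with sh*Dyrk1a* and −0.10 between the treatments, and the 27 with a window and no match −0.21, −0.25 and −0.11. Of the listed regulators of mitochondrial biogenesis, the 2 of smallest p, *Nrf1* and *Gabpb1*, are given here. Levels of the genes of GABPA and YY1 are not given. *Nrf1* had 36.4 and 52.3 CPM in control, 54.0 and 48.8 CPM with harmine and 57.5 and 59.5 CPM with sh*Dyrk1a*, and did not pass (adjusted p = 0.949 and 0.679, edgeR). *Gabpb1*, the partner of GABPA, had 42.7 and 63.3, 53.1 and 61.5, and 46.7 and 46.6 CPM. Members that lie head to head with another gene had medians of −0.24 and −0.29, and the 23 tested genes on the other side of these start regions had 0.04 and −0.04.

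Other genes of mitochondrial translation were read from lists of known genes, of which no gene passed after adjustment in any comparison. The 7 mitoribosomal proteins with other names had medians of −0.30 in each comparison with control, with 6 of 7 below 0 with harmine and 7 of 7 with sh*Dyrk1a*. Among them, *Chchd1*, a small subunit protein, had 78.5 and 38 CPM in control, 30.4 and 32.2 CPM with harmine and 32.6 and 26.8 CPM with sh*Dyrk1a*. Its log2 fold changes were −0.92 (standard error 0.28) and −1.01 (standard error 0.28), each at an unadjusted p under 0.05 and the 1 such gene of its list. Of all genes, 3.07% with harmine and 4.59% with sh*Dyrk1a* were lower at that threshold. *Ptcd3*, of the same list, had −0.37 (standard error 0.21) between the treatments.

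The 12 translation factors had medians of 0.07 with harmine and −0.07 with sh*Dyrk1a*, with 0 of 12 at an unadjusted p under 0.05 in either. *Mtfmt*, which formylates the initiator tRNA, had 41.1 and 41.7 CPM with harmine and 24.9 and 33.3 CPM with sh*Dyrk1a* (−0.50, standard error 0.21, unadjusted p = 0.0317, edgeR), and *Tsfm*, an elongation factor, had −0.64 (standard error 0.32) with harmine. For 26 tested genes of ribosome assembly and rRNA modification the medians were −0.05 and −0.09, with *Mrm1*, a methyltransferase of the large rRNA, at 0.65 (standard error 0.29) and *Mterfd1* at −0.58 (standard error 0.28) between the treatments. The 15 genes of mitochondrial transcription and RNA maturation had medians of 0.00 and −0.19, with 2 lower with sh*Dyrk1a* at an unadjusted p under 0.05, against 4.59% of all genes. These were *Slirp*, a stabilizer of mitochondrial mRNA, with 91.6 and 38 CPM in control and 33.7 and 35.1 CPM with sh*Dyrk1a*, and *Tefm*, an elongation factor of transcription, with 11.3 and 11 CPM against 5.75 and 4.72 CPM. For *Slirp*, control replicate 2 lay next to the sh*Dyrk1a* libraries and the gap was that of control replicate 1. The 20 aminoacyl-tRNA synthetases and related enzymes of mitochondria lay on the other side of 0, with 15 of 20 above it in each comparison with control and medians of 0.23 and 0.20. *Nars2* had 0.52 (standard error 0.32) and 0.63 (standard error 0.32) and *Iars2* had 0.24 (standard error 0.23) and 0.43 (standard error 0.23), and none of the 20 reached an unadjusted p under 0.05. The 7 regulators of mitochondrial biogenesis tested of 9 had medians of 0.05 and −0.05. Transcript length and the leaving out of control libraries were not examined for any of these lists. How the lists differ from the members was not tested.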

How the data were processed

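PolyA RNA of 6 libraries was sequenced. The authors used TopHat for alignment to mm10 (the submitters' processing notes name TopHat2 2.0.13) and deposited expected counts per gene from RSEM, without normalization. The versions of RSEM and of its annotation are not given in the sources used here. From these, counts were rounded and tested with edgeR 4.0.16 (R 4.3.3; TMM scaling, at least 10 counts by filterByExpr, a robust quasi-likelihood fit of 3 group means, two-sided, Benjamini-Hochberg over 10607 genes, threshold 0.05). The standard error is the absolute log2 fold change divided by the root of F. DESeq2 1.42.0 was an alternative. Expected counts of 25 members were not whole (tolerance 0.01), so reads shared with other genes were divided by RSEM. Transcript lengths are medians over basic protein-coding transcripts of GENCODE M21 (GRCm38, the assembly of mm10), matched for 93.0% of symbols. Promoters come from RefSeq. The count test was tried on simulated counts in which known changes were planted. Those counts held no difference between libraries tied to transcript length, so they do not test the fit for it.

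Members and gene lists were chosen with earlier results of these data known. Fold changes are printed for the 6 members of smallest p per comparison, levels for the 5 highest and 5 lowest per kilobase, the S18 paralogs and members with a known place, and up to 2 genes per list. *Mrps35* and the genes named by count were added after their values were seen. Alternatives were other scalings, DESeq2, other filters, the replicate block, each pair alone, removal of length and GC trends (splines with 4 degrees of freedom), thinning and leaving out each library. The longest transcript and the alternatives for short, long, large and small subunit genes were chosen after seeing the data. Replicate numbers were not taken to pair the libraries, since the deviations of equal numbers correlated at 0.12, 0.02 and 0.24.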

Additional observations from a re-analysis of the deposited data

How the results depend on the processing

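The medians of the members kept their sign in all 3 comparisons under every alternative other than leaving out control replicate 1. Leaving out each library in turn gave medians of −0.49 to 0.21 with harmine, −0.60 to 0.07 with sh*Dyrk1a* and −0.13 to −0.06 between the treatments. The number of members past adjusted p 0.05 was 0 to 8 with harmine and 0 to 17 with sh*Dyrk1a*, the highest without control replicate 2. At an unadjusted p under 0.05 the counts were 0 to 36, 4 to 34 and 0 to 4. The log2 fold change of *Dyrk1a* ranged from −0.45 to 0.07, the latter without control replicate 2. *Mrps14* with harmine ranged from −0.94 to 0.07, turning without control replicate 1, and between the treatments *Mrps25* ranged from −0.06 to 0.73, turning without sh*Dyrk1a* replicate 2, and *Mrpl16* turned to 0.06 after thinning. The cause of these turns was not tested. At an unadjusted p under 0.05, the count of 2 with harmine was 7 without a filter and 1 after thinning. The count of 14 with sh*Dyrk1a* was 8 in DESeq2, 5 with length and GC trends removed and 7 after thinning. The count of 1 between the treatments was 0 in DESeq2, 2 without a filter, 0 with a minimum count of 50, 3 with the pair alone and 0 after thinning. With the replicate number as a block the medians were −0.22, −0.30 and −0.11 and the counts 2, 11 and 1 and 0 members passed after adjustment, so the block moved no count by over 1.5 times. The shares of all genes under these alternatives are not given here, so the counts do not show a difference from other genes. Without a library the lone sample of its group is assumed to vary like the others. The counts of those fits, the highest ones above included, are therefore not a result about these genes. Other genes with transcripts of at most 1221 bases were also higher in control replicate 1 than in control replicate 2, by a median of 0.68 (log2). Members whose exons overlap no other gene had medians of −0.29, −0.37 and −0.11. Depth limits most of all the controls, of which replicate 2 is the smallest library, and members such as *Mrps31* with about 10 counts.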
